A study of Macaca mulatta with 20 samples.

Results

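The potassium channel genes were taken as every gene whose single symbol in the array annotation starts with KCN. This gave 101 of the 21951 genes with a single symbol, with 74 read on rhesus arrays, 97 on human arrays and 70 on both. They comprised 36 genes of voltage-gated channels, 8 of calcium or sodium activated channels and relatives, 14 of inward rectifiers, 15 of two-pore channels, 17 of accessory and regulatory proteins, and 11 non-coding genes that were read on the human arrays alone. Where a gene had several probe sets, the brightest one over the 10 arrays of a type stood for it.

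Potassium channels are membrane pores that pass potassium ions and pull the membrane potential of a cell towards negative values. Voltage-gated channels end action potentials in nerve and muscle cells, inward rectifiers and two-pore channels hold the potential at rest, and calcium activated channels couple it to calcium entry. Pore-forming subunits assemble with accessory proteins that set their gating and their transport to the membrane, and neurons are known for the wide range of these genes that they express.

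Rhesus macaque RNA came from cerebral cortex, thymus, testis, pancreas and a culture of immortalized fibroblasts, the matrix-forming cells of connective tissue, which made 5 sources. Each source was hybridized to 2 rhesus arrays (Rhesus Macaque Genome Array) and 2 human arrays (Human Genome U133 Plus 2.0), so that 20 arrays were read. The labels give no treatment, genotype, age or number of animals, and describe arrays of the same source as technical replicates. P-values therefore measure the spread between arrays of 5 RNA preparations, not between animals.

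The deposited values are log2 levels, on which a difference of 1 is a 2-fold change. A gene was called above every other source when its level in 1 source exceeded that in each of the other 4 by at least 1 at an adjusted p below 0.05 (limma over all probe sets, each array type by itself), and below every other source by the same rule turned round. The gap of a gene is the difference between its highest and its next highest source. Bacterial control probe sets with no matching RNA in the sample reached a source mean of 3.56 (rhesus arrays) or 3.22 (human arrays), and these values were taken as the floor. A gap to a source at or under the floor is not an exact fold change. Levels of different probe sets were not set against each other.

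Marker genes followed the labels. Neuron markers were above every other source in cortex for 5 of 5 genes on the rhesus and 8 of 8 on the human arrays, exocrine pancreas markers in pancreas for 6 of 6 and 7 of 7, and thymocyte markers in thymus for 5 of 5 and 8 of 9. For the fibroblast and matrix list this held in fibroblasts for 6 of 7 and 4 of 7. In testis it held for Leydig and Sertoli cell markers (6 of 6 and 6 of 7), but for only 4 of 7 and 4 of 10 germ cell markers. Control transcripts showed the highest 3' minus 5' differences in pancreas, for actin on the rhesus arrays (4.26 to 4.89, against 2.03 to 2.79 in the other sources) and for GAPDH on the rhesus (2.46 to 3.08, against 1.22 to 1.97) and human arrays (1.30 to 1.32, against 0.07 to 0.52), and the pancreas arrays also had the highest medians. In bulk RNA, fewer cells of a type and less RNA per cell cannot be told apart.

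The potassium channel genes were above every other source most often in cerebral cortex. On the rhesus arrays this was the case for 29 of 74 genes (39.2%), against 9.23% of all genes on that array. The human arrays gave 23 of 97 genes (23.7%), against 6.38% of all genes. Of the 70 genes read on both array types, 18 (25.7%) met the rule in cortex on both, against 5.45% of the genes read on both. The difference between cortex and the highest other source had a rhesus median of -0.08 over the potassium channel genes and -0.75 over all genes. On the human arrays these medians were -0.07 and -0.27. They rest on the same values as the counts and are not separate support. Genes at or under the floor in all sources, 23 of 74 on the rhesus and 38 of 97 on the human arrays, are included in them.

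Summed over the sources, 42 of 74 rhesus genes (56.8%, all genes 30.7%) and 34 of 97 human genes (35.1%, all genes 19.4%) were above every other source somewhere. The shares outside cortex lay at most 3 percentage points from those of all genes. On the rhesus arrays, 3 genes were above every other source in fibroblasts (4.05%, all genes 7.01%), 4 in pancreas (5.41%, all genes 4.0%), 1 in testis (1.35%, all genes 4.17%) and 5 in thymus (6.76%, all genes 6.3%). The human arrays gave 5 in fibroblasts (5.15%, all genes 4.87%) and 2 each in pancreas, testis and thymus (2.06%, against 2.26%, 2.36% and 3.58% of all genes). In the plot of shares by source, cortex was the source where the potassium channel genes and all genes stood furthest apart on both array types.

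**Figure D1:**
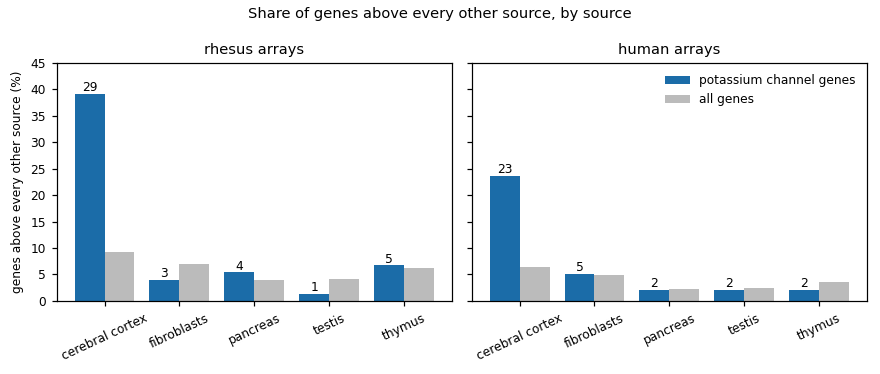
Bars give the percent of genes above every other source (vertical axis) in each of the 5 sources (horizontal axis), for the potassium channel genes in blue and all genes on the array in grey, with the number of potassium channel genes written above the blue bar. The cortex bars stand at 39.2% and 23.7%, against 9.23% and 6.38% of all genes, while the other blue bars stay under 7%.

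Both array types put 23 of the 70 genes above every other source in the same source, 18 of them in cortex, 2 in fibroblasts (all genes 4.55%) and 1 each in pancreas, testis and thymus (all genes 1.67%, 1.97% and 3.31%). KCNMA1 was the 1 gene placed in different sources. A further 16 genes were called on the rhesus arrays alone, 5 on the human arrays alone and 25 on neither. These counts were not set against those of all genes. Over all genes on each array type, 30.7% (rhesus) and 19.4% (human) were above every other source somewhere. The levels of the 45 genes called on at least 1 array type are shown array by array in the heat map.

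**Figure D2:**
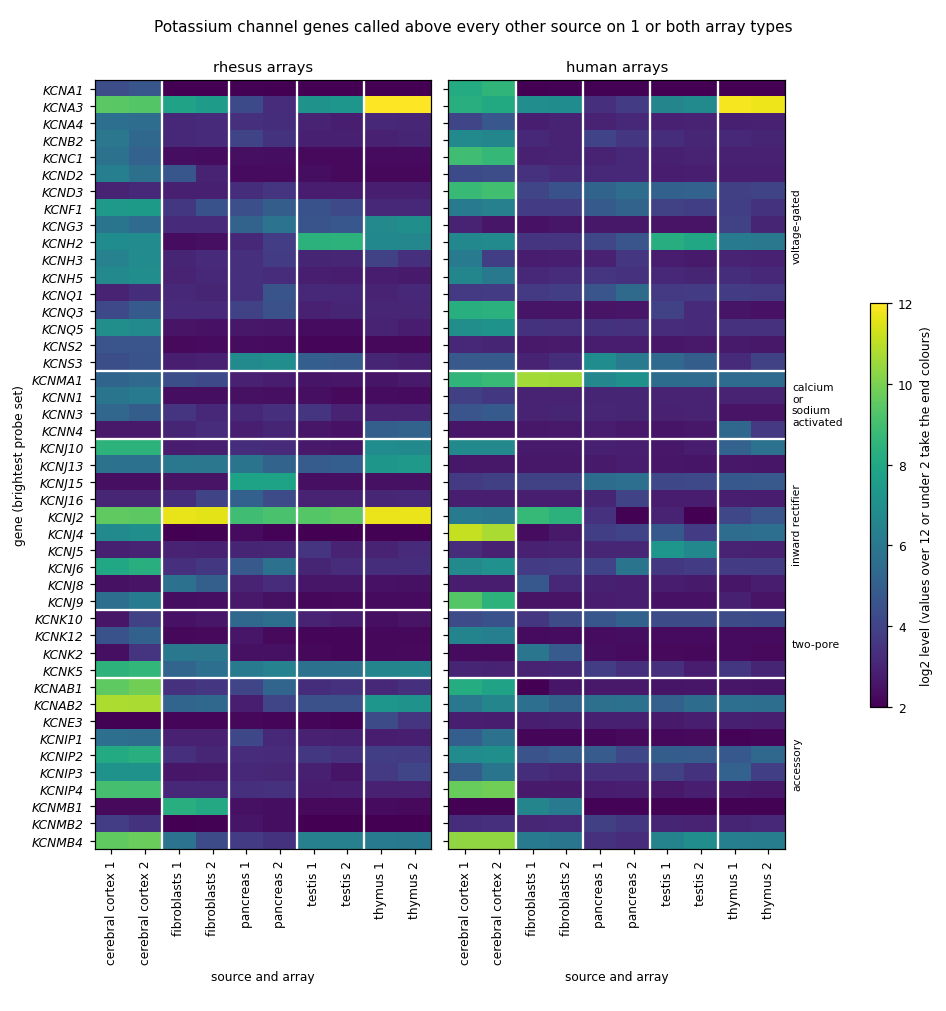
Each row is 1 of the 45 potassium channel genes read on both array types and called above every other source on at least 1, grouped by role, and each column is 1 array of the 5 sources. Colour gives the log2 level. Most bright cells lie in the cortex columns, while KCNA3 is brightest in thymus, KCNMB1 in fibroblasts and KCNH2 in testis on both array types.

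Of all genes, 9.23% (rhesus arrays) and 6.38% (human arrays) were above every other source in cortex. Among the voltage-gated pore subunits, 11 of 28 genes (rhesus arrays) and 11 of 35 (human arrays) were above every other source in cortex. KCNA1 and KCNC1, both pore subunits of fast neuronal channels, KCNQ5, which contributes to the M-current that steadies neuronal firing, and KCNH5, of the ether-a-go-go family, were so on both array types. KCNA1 had rhesus levels of 4.36 and 4.67 in cortex and 1.92 to 2.04 on the other 8 arrays, a gap of 2.48 (SE 0.092, adjusted p = 1.768e-06). Human cortex levels were 8.16 and 8.53 against 2.00 to 2.06, a gap of 6.29 (SE 0.11, adjusted p = 2.144e-07). Levels outside cortex were under the floor on every array, so both gaps run down to the floor.

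KCNC1 stood at 5.78 and 5.16 on rhesus cortex arrays and at 8.92 and 8.67 on human ones, with 2.25 to 2.39 and 2.88 to 3.12 on the arrays of the other sources. Its gaps were 3.09 (SE 0.18) and 5.74 (SE 0.087). KCNQ5 had gaps of 3.99 (SE 0.093, cortex 6.96 and 6.72) and 3.57 (SE 0.056, cortex 6.93 and 7.10). For KCNH5 the gaps were 3.51 (SE 0.066) and 2.87 (SE 0.17). Cortex arrays did not overlap with those of any other source for any of these genes. The genes were picked by their calls and gaps, so this is not separate support. KCNA4, KCNB2 and KCNF1, chosen after their values were seen as the other voltage-gated genes called in cortex on both array types, had human gaps from 1.22 for KCNF1 to 2.88 for KCNB2. KCNV1, a silent subunit read on the human arrays alone, stood at 8.51 and 8.49 in cortex and 2.81 to 3.08 elsewhere, a gap of 5.43 (SE 0.028, adjusted p = 1.193e-09).

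KCNQ3 and KCND3 were called in cortex on the human arrays alone. KCNQ3, a partner in M-current channels, had human levels of 8.25 and 8.40 in cortex and no other array above 3.93, a gap of 4.78 (SE 0.23). On the rhesus arrays its cortex levels of 4.20 and 4.82 overlapped with pancreas levels of 3.99 and 4.49, a gap of 0.27 (SE 0.23, adjusted p = 0.3389) that turned to -0.045 without the second rhesus cortex array. KCND3, a pore subunit of the transient A-type current, stood at 8.78 and 8.97 in human cortex arrays against 5.56 or less elsewhere (gap 3.48, SE 0.17). All rhesus values of KCND3 were under the floor, between 2.79 and 3.49. The difference between the array types was not tested for either gene.

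KCNA3, the voltage-gated channel known from T cells, was highest in thymus. On the rhesus arrays it stood at 12.71 and 12.73 in thymus, 9.44 and 9.34 in cortex, 7.75 and 7.51 in fibroblasts, 7.15 and 7.23 in testis, and 4.25 and 3.26 in pancreas. The human arrays gave 11.86 and 11.75 in thymus, 8.26 and 8.06 in cortex, 6.88 and 6.85 in fibroblasts, 6.54 and 6.75 in testis, and 3.35 and 3.77 in pancreas. Both array types had the order thymus, cortex, then fibroblasts and testis, which did not differ beyond their spread, then pancreas. The gap of thymus over cortex was 3.33 (SE 0.29, adjusted p = 1.021e-04) and 3.65 (SE 0.15, adjusted p = 8.853e-06). Thymocyte markers were also highest in thymus, but their order in the other sources differed from that of KCNA3. On the rhesus arrays their mean level was 12.25 to 12.30 in thymus and 6.28 to 6.29 in testis. It was 3.71 to 3.94 in pancreas, 3.32 to 3.45 in cortex and 3.22 to 3.46 in fibroblasts. The part of these markers in the KCNA3 levels was not tested.

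KCNH2, of the ether-a-go-go related channels best known from the heart, was above every other source in testis. Its rhesus levels were 8.44 and 8.45 in testis, 6.88 and 6.82 in cortex, 6.66 and 6.62 in thymus, 3.11 and 3.82 in pancreas, and 2.33 and 2.41 in fibroblasts. Human arrays gave 8.21 and 7.99 in testis, 6.66 and 6.77 in cortex, 6.07 and 6.004 in thymus, 4.13 and 4.64 in pancreas, and 3.52 and 3.53 in fibroblasts. The gaps of testis over cortex were 1.59 (SE 0.21, adjusted p = 8.013e-04) and 1.39 (SE 0.17, adjusted p = 1.396e-03). With the mean of all its probe sets in place of the brightest, the gaps were 0.90 and 0.95, under the minimum difference.

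KCNS3, a silent subunit that modifies other voltage-gated channels, was highest in pancreas. Rhesus levels were 6.75 and 6.91 in pancreas, 4.99 and 4.85 in testis, 4.39 and 4.61 in cortex, 3.05 and 2.86 in thymus, and 2.84 and 2.92 in fibroblasts, a gap of 1.91 (SE 0.11, adjusted p = 1.647e-05). On the human arrays, pancreas levels of 6.88 and 6.13 stood above testis levels of 5.41 and 4.96 by 1.32 (SE 0.34, adjusted p = 0.01811). The human call was lost without the first human pancreas array (gap 0.94), without the second human testis array (gap 1.09) and after levelling on the spiked controls (gap 0.44). KCNQ1, a pore subunit of heart and epithelia, was called in pancreas on the human arrays alone, at 4.62 and 5.46 against 3.68 to 3.83 elsewhere (gap 1.27, SE 0.25, adjusted p = 0.01018). Without the second human pancreas array its gap was 0.85, and the call was also lost without the first human fibroblast array (gap 1.21). With the mean of its human probe sets the gap was 0.69, and after levelling on the spiked controls it turned to -0.15. The brightest rhesus probe set of KCNQ1 had no call (gap 0.82, adjusted p = 0.0886), and a dimmer one was called in pancreas at a mean of 3.43, under the floor, against 1.92 or less in the other sources.

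**Figure D3:**
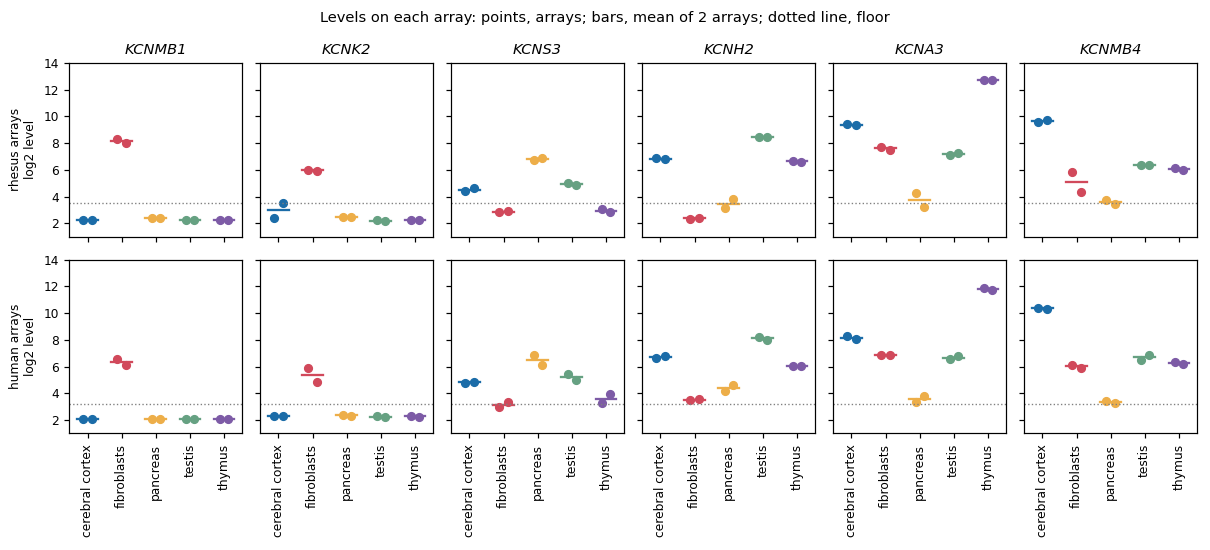
Points are single arrays and bars the mean of the 2 arrays of a source, for 6 genes on the rhesus arrays (upper row) and the human arrays (lower row), with log2 level on the vertical axis, source on the horizontal axis and the floor dotted. KCNMB1 and KCNK2 are highest in fibroblasts, KCNS3 in pancreas, KCNH2 in testis, KCNA3 in thymus and KCNMB4 in cortex, and KCNA3 and KCNMB4 are lowest in pancreas.

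Accessory genes were called in cortex for 8 of 15 on the rhesus (all genes 9.23%) and 5 of 17 on the human arrays (6.38%). In the KCNIP group, whose calcium-binding proteins assemble with A-type channels, 4 of 4 genes were called in cortex by the rhesus arrays and 3 of 4 by the human arrays. KCNIP4 stood at 9.05 and 8.99 in cortex on the rhesus arrays, against 3.10 and 3.13 in fibroblasts, 3.39 and 3.42 in pancreas, 2.76 and 2.83 in testis, and 2.90 and 2.91 in thymus. The human arrays gave 9.69 and 9.82 in cortex and 2.65 to 2.83 elsewhere. All arrays outside cortex were under the floor, and the gaps of 5.62 (SE 0.039, adjusted p = 1.131e-09) and 6.93 (SE 0.064, adjusted p = 1.531e-08) ran down to it.

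KCNIP3 was called on the rhesus arrays alone (cortex 7.09 and 7.12, thymus 3.70 and 4.10, gap 3.21, SE 0.15). Its human cortex levels of 4.96 and 5.89 overlapped with thymus levels of 5.13 and 3.84 (gap 0.94, SE 0.49, adjusted p = 0.3142), while another human probe set of the gene was called in cortex, at a mean of 4.14 against 2.06 or less. KCNIP1 and KCNIP2, chosen after their values were seen to complete the group, had gaps of 1.97 and 4.37 on the rhesus and 3.14 and 1.85 on the human arrays. The beta subunit gene KCNAB1 reached 9.51 and 9.85 in cortex on the rhesus arrays and 3.13 to 5.27 elsewhere, and 8.18 and 7.77 against 2.03 to 2.67 on the human arrays. Its gaps were 4.99 (SE 0.36) and 5.30 (SE 0.21).

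KCNAB2, a second beta subunit, was called in cortex on the rhesus arrays alone. It stood at 10.75 and 10.72 in cortex, 7.24 and 7.13 in thymus, and 2.83 and 4.09 in pancreas (gap 3.55, SE 0.36, adjusted p = 2.202e-04). Its brightest human probe set lay at 5.98 and 6.56 in cortex and 5.05 to 5.72 elsewhere, a gap of 0.56 (adjusted p = 0.1197) that turned to -0.036 after quantile normalization. Another human probe set of KCNAB2 had a mean of 6.30 in cortex and 2.57 or less elsewhere and was called in cortex. Of its 3 other rhesus probe sets, a pair was called in cortex (means of 7.49 and 7.45, against 4.50 or less) and 1 in testis (5.75, against 4.62 or less).

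KCNE3, a single-span subunit, was called in thymus on the rhesus arrays at 4.32 and 3.56, against 2.04 to 2.22 elsewhere (gap 1.74, SE 0.22, adjusted p = 6.148e-04). Its brightest human probe set was under the floor everywhere, between 2.71 and 2.89. A dimmer human probe set of KCNE3 had a mean of 5.82 in thymus and 2.02 or less elsewhere.

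The large-conductance calcium activated channel is built from KCNMA1 and tissue-specific beta subunits. KCNMB4, the beta subunit known from brain, had rhesus levels of 9.55 and 9.71 in cortex, 6.37 and 6.34 in testis, 6.16 and 6.02 in thymus, 5.82 and 4.34 in fibroblasts, and 3.76 and 3.48 in pancreas. Human levels were 10.36 and 10.33 in cortex, 6.49 and 6.89 in testis, 6.30 and 6.20 in thymus, 6.10 and 5.92 in fibroblasts, and 3.42 and 3.28 in pancreas. Cortex was above and pancreas below every other source on both array types. On the rhesus arrays the call in pancreas (1.46 below fibroblasts, adjusted p = 0.03343) was lost when any 1 array other than the second fibroblast array was left out. Testis, thymus and fibroblasts did not differ beyond their spread on either. The gaps of cortex over testis were 3.28 (SE 0.43, adjusted p = 9.208e-04) and 3.66 (SE 0.14, adjusted p = 7.714e-06).

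KCNMB1, the beta subunit known from smooth muscle, was high in fibroblasts alone. Rhesus levels were 8.32 and 8.03 in fibroblasts and 2.24 to 2.43 on the other 8 arrays, a gap of 5.77 (SE 0.087, adjusted p = 5.774e-08). Human levels were 6.56 and 6.11 against 2.05 to 2.09, a gap of 4.25 (SE 0.13, adjusted p = 4.057e-06). Among the smooth muscle markers, TAGLN was also highest in fibroblasts, at a mean of 13.18 (rhesus) and 13.27 (human). MYH11, the smooth muscle myosin, was highest in testis (12.05 and 10.81), where KCNMB1 was under the floor. Averaged over the list, marker levels on the rhesus arrays were 7.07 to 7.18 in testis and 6.09 to 6.18 in fibroblasts. There 2 of 6 markers were called in fibroblasts and 3 in testis. On the human arrays the means were 6.06 to 6.33 in testis and 6.18 to 6.21 in fibroblasts, with 2 of 8 markers called in each. The part of these markers in the KCNMB1 level was not tested.

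KCNMA1, the pore subunit, was called in cortex on the rhesus and in fibroblasts on the human arrays. Its brightest rhesus probe set had levels of 5.21 and 5.43 in cortex, 4.40 and 4.20 in fibroblasts, and 2.57 to 2.94 elsewhere, so that cortex exceeded fibroblasts by 1.02 (SE 0.11, adjusted p = 2.929e-04). This value fell under the minimum difference without the second cortex array (0.91), without the second fibroblast array (0.92) and under other normalizations. The brightest human probe set had 8.53 and 8.74 in cortex, 10.61 and 10.57 in fibroblasts, 6.64 and 7.004 in pancreas, and 5.50 to 5.52 in testis and thymus, so that fibroblasts exceeded cortex by 1.96 (SE 0.12, adjusted p = 6.043e-05). Other called probe sets of KCNMA1 were highest in cortex on both array types. A rhesus one had means of 6.22 in cortex and 2.32 in fibroblasts, and of the human ones, one had 9.24 and 2.38 and another 7.15 and 5.76, and all 3 were called in cortex. One human probe set thus placed the gene in fibroblasts and the other called probe sets in cortex.

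**Figure D4:**
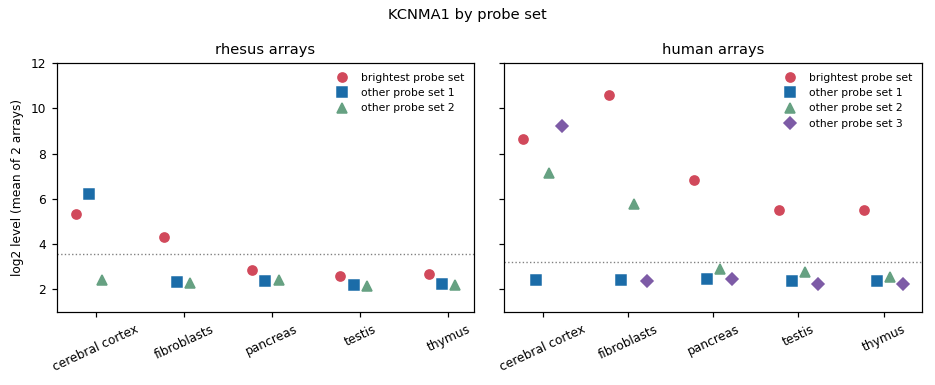
Mean log2 level of 2 arrays (vertical axis) for each KCNMA1 probe set in the 5 sources (horizontal axis), with the floor dotted. The brightest human probe set (circles) is highest in fibroblasts at 10.6, while the other called probe sets of both array types are highest in cortex.

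Small-conductance channel genes were called in cortex for KCNN1 and KCNN2 on the rhesus arrays and for KCNN3 on both. KCNN1 stood at 5.87 and 6.13 in rhesus cortex arrays and 2.26 to 2.46 elsewhere (gap 3.56, SE 0.092). On the human arrays it reached 3.90 and 3.62 in cortex, a gap of 0.74 (SE 0.082, adjusted p = 8.057e-04) that is under the minimum difference. KCNN2, read on the rhesus arrays alone, had 7.08 and 7.14 in cortex and 2.85 to 4.30 elsewhere (gap 3.00, SE 0.13). KCNN3, named with values after they were seen, had gaps of 1.78 and 1.68.

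KCNN4, the intermediate-conductance channel of lymphocytes and red blood cells, was called in thymus on the rhesus arrays. It stood at 5.01 and 5.18 in thymus and 2.48 to 3.28 elsewhere (gap 1.94, SE 0.11, adjusted p = 1.655e-05). On the human arrays the thymus levels of 5.37 and 3.65 differed by more than those of any other member in thymus, and the contrasts against fibroblasts and testis missed the threshold (adjusted p = 0.05029 and 0.05025). Neither array overlapped with another source. KCNT2, a sodium activated channel gene read on the human arrays alone, had a mean of 7.15 in cortex and 4.76 in fibroblasts (gap 2.39, SE 0.32), and was chosen after its values were seen.

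Inward rectifiers were called in cortex for 4 of 13 genes on each array type (all genes 9.23% rhesus, 6.38% human). These were the same 4 genes on both: KCNJ4, KCNJ6, KCNJ9 and KCNJ10. KCNJ4, a strong inward rectifier of neurons, had 6.78 and 6.96 in rhesus cortex arrays and 1.97 to 2.29 elsewhere (gap 4.67, SE 0.081). In the human set, cortex stood at 11.12 and 10.72, thymus at 5.58 and 5.67, testis at 4.77 and 3.73, pancreas at 3.87 and 4.03, and fibroblasts at 2.32 and 2.69 (gap 5.29, SE 0.34). The brightest human probe set thus read KCNJ4 above the floor in 4 of 5 sources and the rhesus one in cortex alone. The other human probe set of KCNJ4 was also above the floor in cortex alone. It was called there at a mean of 5.22, against 2.55 or less in the other sources.

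KCNJ9, whose product assembles with that of KCNJ6 into channels opened by G proteins, had gaps of 3.27 (SE 0.15, cortex 5.62 and 6.07) and 6.12 (SE 0.28, cortex 9.38 and 8.48). Values outside cortex were under the floor, at 2.21 to 2.70 and 2.49 to 2.87. KCNJ6 and KCNJ10 are described after their values were seen. KCNJ6 had gaps of 2.84 (SE 0.31) and 2.01 (SE 0.54, adjusted p = 0.02432), both over pancreas, where its human arrays read 4.01 and 5.84. KCNJ10, the channel through which astrocytes take up potassium, was the one with a second source near cortex: 8.45 and 8.45 in cortex against 6.87 and 6.75 in thymus on the rhesus arrays, and 6.74 and 6.71 against 5.14 and 5.75 on the human arrays. Astrocyte markers were called in cortex for 3 of 4 genes on the rhesus and 4 of 5 on the human arrays. Their mean was 4.71 to 4.73 in thymus against 10.38 to 10.45 in cortex on the rhesus arrays, and 3.69 to 3.73 against 9.66 to 9.74 on the human arrays. Single markers differed in thymus: GFAP stood at 5.25 (rhesus) and 2.13 (human, under the floor), and ALDH1L1 at 7.63 and 8.36, above its cortex means of 6.85 and 6.97. Their part in the KCNJ10 levels was not tested. The KCNJ10 levels in thymus were seen with the brightest probe sets alone. Its other rhesus probe set was called in cortex at a mean of 4.76, with thymus under the floor at 2.34. The other human probe set of KCNJ10 was under the floor in all sources.

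Other inward rectifiers were called outside cortex, each on 1 array type. KCNJ15, known from kidney, had rhesus levels of 7.79 and 7.80 in pancreas and 2.40 to 2.53 elsewhere, a gap of 5.27 (SE 0.028, adjusted p = 6.702e-10). Its brightest human probe set had 5.52 and 5.64 in pancreas and 4.75 and 4.80 in thymus, a gap of 0.81 (SE 0.072) under the minimum difference, which turned to -0.22 after levelling on the spiked controls. A pair of dimmer human probe sets was called in pancreas, with means of 4.65 and 3.37 against 2.57 or less. KCNJ16, a subunit of epithelia and glia, was called in pancreas on the rhesus arrays at 5.11 and 4.32, over 3.30 and 4.05 in fibroblasts (gap 1.04, SE 0.31, adjusted p = 0.03379). This call was lost in 8 of 10 leave-one-out fits, where the gap was 0.65 to 1.04, with the replicate block, and after each of the other normalizations.

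KCNJ8, the pore subunit of ATP-sensitive channels in vessel walls, was called in fibroblasts on the rhesus arrays (5.73 and 5.01, pancreas 2.99 and 3.26, gap 2.24, SE 0.22). Its human fibroblast arrays read 4.74 and 3.14, a gap of 1.10 (SE 0.47, adjusted p = 0.1152), and without the second of them the gap was 1.90 and passed. KCNJ2, a classical strong rectifier, was called in fibroblasts on the human arrays (8.71 and 8.41, cortex 6.11 and 5.93, gap 2.54, SE 0.52, adjusted p = 0.01513), and the call on this gap was lost when any 1 of these 4 arrays was left out (gaps 2.39 to 2.69). On the rhesus arrays KCNJ2 stood at 11.68 and 11.60 in fibroblasts and 11.69 and 11.72 in thymus, which did not differ beyond their spread (0.07, adjusted p = 0.5527), and at 8.93 to 9.57 in the other 3 sources.

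KCNJ5, a G protein-gated subunit known from heart and adrenal gland, was called in testis on the human arrays at 7.25 and 6.68 against 2.92 to 3.27 elsewhere (gap 3.86, SE 0.19, adjusted p = 2.472e-05). None of its 5 other human probe sets was called, with means of 4.06 or less in every source, and on the rhesus arrays all its means were under the floor, where the gap of 0.16 turned to -0.10 without the first testis array. KCNJ13, a channel of epithelia, was called in thymus on the rhesus arrays (7.30 and 7.36, fibroblasts 6.01 and 5.95, gap 1.35, SE 0.19), while its other rhesus probe sets and its human ones lay under the floor in all sources. Averaged over its probe sets, the rhesus gap of KCNJ13 was 0.38, and after levelling on the spiked controls it was 0.71, both under the minimum difference.

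Two-pore channels were called in cortex for 2 of 12 genes on the rhesus (all genes 9.23%) and 1 of 14 on the human arrays (all genes 6.38%), the latter near the share of all genes, and 6 and 8 of them were at or under the floor in all sources. KCNK12, a close relative of KCNK13, was called in cortex on both array types (rhesus 4.51 and 5.11, gap 2.38, SE 0.20, and human 6.53 and 6.33, gap 4.07, SE 0.061), with all other arrays under the floor. The other rhesus call in cortex was KCNK5, described after its values were seen, at a mean of 8.54 against 6.57 in thymus. Its other rhesus probe set was lowest in cortex, at 3.63 against 5.83 in pancreas and thymus. The human probe set of KCNK5 was not called and stood at 2.99 in cortex, under the floor. KCNK2, a channel opened by stretch and lipids, was called in fibroblasts on both. Its rhesus fibroblast arrays read 6.003 and 5.95, with 2.41 and 3.56 in cortex and 2.18 to 2.46 elsewhere (gap 2.99, SE 0.33, adjusted p = 3.602e-04), and its human fibroblast arrays 5.92 and 4.86 against 2.23 to 2.38 (gap 3.05, SE 0.31, adjusted p = 6.265e-04). KCNK6, read on the human arrays alone, was called in fibroblasts too (7.16 and 6.67, gap 2.37, SE 0.25). KCNK10, a relative of KCNK2, was called in pancreas on the rhesus arrays alone (5.36 and 5.61, cortex 2.60 and 3.98, gap 2.19, SE 0.41), and its human gap of 0.48 turned to -0.60 after levelling on the spiked controls.

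KCNK1, described after its values were seen, had its highest levels in cortex, with fibroblasts next. Rhesus levels were 9.08 and 8.88 in cortex, 8.58 and 8.26 in fibroblasts, 6.17 and 5.96 in pancreas, 5.47 and 5.61 in testis, and 2.80 and 2.98 in thymus. The gap of cortex over fibroblasts was 0.56 (SE 0.14, adjusted p = 0.01891), and on the human arrays 0.61 (SE 0.21, adjusted p = 0.1016), where fibroblasts stood at 8.01 and 7.75 and the other 3 sources at 3.48 to 4.63. Thymus was below every other source on the rhesus arrays. A dimmer rhesus probe set of KCNK1 was called in cortex, at a mean of 8.29 against 7.26 in fibroblasts. No human probe set of the gene was called.

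Among the non-coding genes, KCNQ1OT1, the antisense transcript of the KCNQ1 imprinted region, was the 1 of 11 called, in thymus at 8.28 and 8.54 against 5.84 to 7.04 elsewhere (gap 1.43, SE 0.22, adjusted p = 5.417e-03). With the mean of its 5 probe sets the gap was 0.32. At or under the floor in all sources were 7 of the 11.

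Calls below every other source were few. Pancreas had 3 genes on the rhesus (all genes 4.61%) and 2 on the human arrays (all genes 3.72%), and KCNA3 and KCNMB4 were the 2 called on both (all genes 1.9%). KCNA3 in pancreas lay below testis, the next lowest source, on both array types, and KCNMB4 below fibroblasts. The third rhesus gene was KCNAB2. The rhesus count was 2, KCNA3 and KCNMB4, when the second fibroblast array was left out, and 2, KCNA3 and KCNAB2, when the second pancreas array was left out. Leaving out any other single rhesus array left KCNA3 alone. Fibroblasts had KCNG3 and KCNH2 on the rhesus arrays (all genes 1.95%) and KCNJ4 on the human arrays (all genes 0.941%), and thymus had KCNK1 on the rhesus arrays (all genes 3.02%) and 0 genes on the human arrays (all genes 1.41%), with 2 there at an unadjusted p under 0.05 and no minimum difference. For cortex, limma called 0 genes below every other source on either array type (all genes 4.78% and 2.06%), and at an unadjusted p under 0.05 there were 0 (rhesus) and 1 (human), the latter with a difference under 1. For testis it also called 0 (all genes 0.467% and 0.147%), with 4 and 1 at an unadjusted p under 0.05 and no minimum difference.

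Many of the genes were not read above the floor anywhere. At or under it in all sources were 23 of 74 genes on the rhesus and 38 of 97 on the human arrays, 17 of them on both types. Of the called genes, 20 of 42 on the rhesus and 14 of 34 on the human arrays had a next highest source at or under the floor, so their gaps cannot be read as exact folds. Above the floor in all 5 sources were 6 and 22 genes. The range between the highest and lowest source mean had a median of 2.58 over the rhesus genes (all genes 1.94) and 0.81 over the human genes (all genes 0.84). Values within a pair could differ widely: KCNH3, called in cortex on the rhesus arrays, read 6.07 and 3.85 on the human cortex arrays and had no call there (adjusted p = 0.08138).

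The 2 array types are compared gene by gene in the plot of cortex gaps. Cortex was the highest source on both for 28 of the 70 genes, with no minimum for the difference. By array type, it was highest for 35 of 74 genes on the rhesus arrays (47.3%, all genes 18.4%). On the human arrays it was highest for 39 of 97 (40.2%, all genes 15.4%). The differences between cortex and the highest other source reached 5.62 (rhesus) and 6.93 (human), both for KCNIP4. Several genes had a much larger value on 1 array type, among them KCNQ3 and KCND3 on the human and KCNIP3, KCNN1 and KCNAB2 on the rhesus arrays, and no test was made of the difference between array types.

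**Figure D5:**
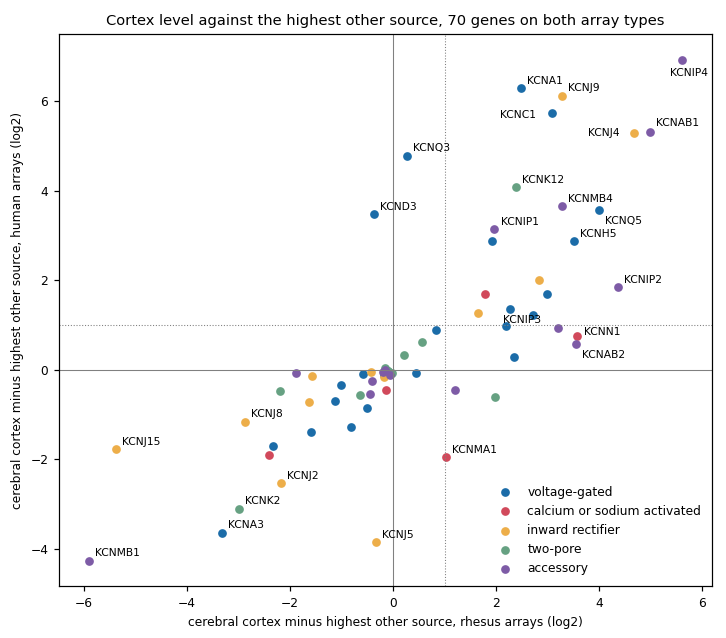
Each point is 1 of 70 genes, placed by its log2 level in cortex minus that in the highest other source on the rhesus arrays (horizontal axis) and on the human arrays (vertical axis), coloured by role, with dotted lines at the minimum difference of 1. Points to the upper right, led by KCNIP4 at 5.62 and 6.93, are highest in cortex on both array types, and KCNMB1 and KCNA3 lie at the lower left.

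The choice of probe set mattered for a part of the genes. Several probe sets were available for 28 genes read by rhesus arrays and 49 read by human arrays. Among called genes with several, another probe set was called in the same source for 11 and 12 genes, no other was called for 5 and 11, and another source was called for KCNAB2 on the rhesus and KCNMA1 on the human arrays. A further 3 rhesus genes (KCNC4, KCNK1 and KCNQ1) and 6 human genes (KCNAB2, KCNC2, KCNE3, KCNE4, KCNIP3 and KCNJ15) were called on a dimmer probe set alone.

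Some of the genes are direct neighbours on a chromosome, as the RefSeq rhesus gene table lists them, which gave 11 pairs. KCNJ9 and KCNJ10 were both called in cortex on both array types. In 3 pairs the neighbours were called in different sources: KCNA3 in thymus and KCNA2 in cortex, KCNJ15 in pancreas and KCNJ6 in cortex, both on the rhesus arrays, and KCNMB1 in fibroblasts and KCNIP1 in cortex on both. KCNA2, a partner of KCNA1 in axonal channels, was read on the rhesus arrays alone and had 10.80 and 10.90 in cortex and 8.42 and 8.25 in thymus (gap 2.51, SE 0.14). The other sources stood at 5.21 or less for KCNA2, so that thymus came next after cortex on this probe set. Its other rhesus probe set was under the floor in all sources, with means of 2.89 in cortex and 2.50 in thymus, and was not called. KCNA2 was given with values after they were seen.

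Other genes of membrane excitability were read by the same rule. Over all genes, the share called in cortex was 9.23% for rhesus and 6.38% for human probe sets. Voltage-gated sodium channels were called in cortex for 5 of 9 genes on the rhesus and 6 of 12 on the human arrays, voltage-gated calcium channels for 6 of 12 and 9 of 17, and proteins that partner with potassium channels for 5 of 10 and 9 of 16. Sodium-potassium pump subunits had 0 of 2 and 2 of 3, and HCN channels, which carry the pacemaker current, 0 of 1 and 0 of 3. Gaps of cortex were 7.66 and 5.94 for SCN3B, 6.43 and 5.37 for CACNA1B, and 7.48 and 6.29 for DLG2, a scaffold of the synapse that binds potassium channels. DPP10, which assembles with A-type channels and KCNIP proteins, had gaps of 3.60 and 3.79 with pancreas as the next source, and was chosen after its values were seen. CNTNAP2, which clusters KCNA1 and KCNA2 channels along axons, was called in thymus on the rhesus (gap 1.44) and in cortex on the human arrays (gap 3.87).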

How the data were processed

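Levels of potassium channel genes were taken from the 2 tables that the authors deposited, 1 per array type, which hold a log2 value for each array and probe set. RMA is the method named in the submitters' processing notes. The study's methods describe a quantile normalization of perfect-match probe intensities between the 2 replicate arrays of a pair. The sources used here do not state whether that step preceded the deposited values, nor the RMA version. Gene symbols came from the array annotation. Of 74 genes on the rhesus arrays, 71 were matched by gene number to a RefSeq rhesus gene table, which changed 0 symbols.

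Sources were compared in R 4.3.3 with limma 3.58.1 (lmFit, eBayes), for each array type by itself, over all probe sets except controls (52766 rhesus, 54613 human), in 10 contrasts with Benjamini-Hochberg adjustment. Tables and figures were made with Python 3.11.15, pandas 2.3.3 and matplotlib 3.10.9. Data were simulated with the spread of the real arrays and sources equal except for shifts in cortex. There limma recovered 72 of 100 shifts of 1.5 and 97 of 100 shifts of 3 for the rhesus arrays. For the human ones it recovered 77 and 93, with 0 false calls on either type. In the real data many more probe sets differed, with 12489 rhesus and 7610 human ones above every other source. The simulated rates therefore need not hold for the real data.

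Genes named with values were those called on both array types (up to 10 for cortex and 6 for each other source, by mean gap), in different sources on the 2 types, on 1 type only (up to 3 per source and type), or below every other source on both (up to 3 per source), and those read on 1 type only (up to 2 per source). A further group, genes above the floor in all sources and not called, on both array types at once, had 0 members. Genes named outside this rule were chosen after their values were seen. The genes and lists were chosen with earlier results of these data known.

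Alternatives were other normalizations between arrays (quantile, array medians, spiked controls), no minimum difference, dim probe sets left out, all probe sets of a gene averaged, the mean of the other 4 sources as the comparator, the replicate number as a block, and each array left out. The number of arrays, 2 per source and type, limits the precision.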

Additional observations from a re-analysis of the deposited data

Results flagged for a closer look

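KCNMA1 moved in opposite directions between cortex and fibroblasts on the 2 array types. Cortex minus fibroblasts was 1.02 (rhesus arrays) against -1.96 (human arrays). Both rhesus cortex arrays stood above both fibroblast arrays, and both human cortex arrays stood below both fibroblast arrays. The difference between the array types was not tested. Dimmer human probe sets of the gene were called in cortex.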

How the results depend on the processing

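The counts of genes above every other source in cortex, 29 and 23, ran from 28 to 31 and from 22 to 24 when 1 array was left out. Outside cortex these ranges were 3 to 3 and 4 to 5 in fibroblasts, 3 to 4 and 1 to 3 in pancreas, 1 to 1 and 2 to 2 in testis, and 4 to 6 and 2 to 4 in thymus (rhesus first). Below every other source they were 0 to 0 on both in cortex and testis, 1 to 2 and 0 to 1 in fibroblasts, 1 to 2 and 2 to 2 in pancreas, and 1 to 2 and 0 to 0 in thymus. Human pancreas fell to 1 without the first fibroblast, second pancreas or second testis array, and human thymus rose to 4 without the second thymus array. Against the mean of the other 4 sources, above-counts became 5 (rhesus fibroblasts), 10 (rhesus thymus), 4 (human pancreas) and 4 (human thymus). Below-counts became 2 and 3 in cortex, 18 and 15 in fibroblasts, 13 and 15 in pancreas, 23 and 15 in testis, and 15 and 17 in thymus, since a gene very high in 1 source lies below that mean elsewhere. Without a minimum difference, above-counts became 10 and 15 in pancreas and 2 in rhesus testis, and below-counts 1 in rhesus testis, 2 in human fibroblasts and 2 in human thymus. With the mean of all probe sets, above-counts became 0 and 0 in testis, 3 in rhesus thymus and 1 in human pancreas, and below-counts 0 and 0 in fibroblasts and 1 and 1 in pancreas. With quantile normalization, above-counts became 5 in human pancreas and 1 in human thymus, and below-counts 1 and 2 in fibroblasts and 1 in rhesus testis, and after subtraction of array medians 1 in rhesus fibroblasts. Spiked controls stood 0.878 and 0.879 over their mean in pancreas and -0.703 and -0.538 from it in fibroblasts. Levelling on them gave below-counts of 0 and 0 in fibroblasts and 6 and 4 in pancreas, and an above-count of 0 in human pancreas. It reversed the gaps of KCND3 (-0.70), KCNJ16 (-0.54), KCNJ2 (-0.57) and KCNQ1 (-0.25) on the rhesus arrays, and of KCNE3 (-1.39), KCNJ13 (-1.29), KCNJ15 (-0.22), KCNJ16 (-0.71), KCNK10 (-0.60) and KCNQ1 (-0.15) on the human arrays. Quantile normalization reversed the human gaps of KCNAB2 (-0.036) and KCNE3 (-0.070), array medians that of KCNE3 (-0.084), and the mean of all probe sets that of KCNMA1 (-1.57). Leaving out an array reversed the rhesus gaps of KCNJ5 (-0.10 to 0.42 over the arrays left out) and KCNQ3 (-0.045 to 0.58). Left without both pancreas arrays, an alternative chosen after seeing the data, human below-counts became 2 in fibroblasts and 1 in testis. Of 1143 gap values under alternatives, 1078 kept direction and side of the threshold, and of 376 counts, 319 stayed within 1.5 times. The causes of the other changes were not tested.

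Deviations of arrays with the same replicate number correlated between -0.0252 and 0.0101 on the rhesus and between -0.0341 and 0.0177 on the human arrays, so the numbers do not pair the arrays. With the replicate number as a block, the cortex counts were 29 and 23.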
